A study of Homo sapiens with 6 samples.

Results

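The genes described here are 10 genes of interleukin-6 (IL-6) family signalling and of the acute phase response: the ligands IL6 and LIF, the receptor chains IL6R, IL6ST, LIFR and OSMR, the transcription factor STAT3, its feedback inhibitor SOCS3, and the acute phase genes LBP and SERPINA1. They were chosen by name, and every probe that the platform annotation gives to one of these symbols was taken, which gave 19 of the 48801 probes on the array. The cells were IGROV-1, an established human ovarian carcinoma line, cultured for 24 h with medium and cell-free mouse ascites in equal volumes. The donor mice bore intraperitoneal IGROV-1 tumours, maintained by serial passage. In 1 group the ascites came from mice given saline. In the other it came from mice given CpG ODN (ODN1826), a phosphorothioated DNA oligonucleotide that activates mouse Toll-like receptor 9, into the peritoneum at 20 µg per mouse, once or on 3 consecutive days. Ascites was taken 24 h after the last dose in both groups, and RNA of 3 samples per group was hybridised to 1-colour Illumina bead arrays. Each group had 3 mice. Whether ascites was pooled, which dosing schedule a sample had, and whether samples were separate cultures is not stated in the labels, so the p-values reflect sample-to-sample spread that could be purely technical. Both groups were exposed to mouse ascites, and no array of IGROV-1 cells in medium alone was analysed here.

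IL-6 binds the receptor chain IL6R and then recruits gp130, the shared signalling chain encoded by IL6ST. LIF signals through LIFR paired with gp130, and oncostatin M through OSMR or LIFR paired with gp130. The receptor complexes activate JAK kinases, which phosphorylate STAT3. STAT3 then enters the nucleus, induces its own gene and SOCS3, whose protein blocks gp130 and JAK, and in hepatocytes it drives acute phase genes such as LBP and SERPINA1. In ovarian carcinoma, IL-6 in ascites is known as a growth and survival signal of tumour cells.

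Mean probe intensity was 587 to 788 per array, and 13303 to 13835 probes per array lay above background, that is, had a detection p-value under 0.01. CpG ascites replicate 1 stood apart from the other arrays: its correlation with them across probes was 0.948 to 0.958, and its array weight was 0.27, against 0.61 to 1.95 on the other 5. Where leaving it out turned the change of a kept probe named below, or moved it by over 1.5 times, the change is given with and without it. Of 10 markers fixed for the cell line's epithelial identity, 7 were above background on at least 3 arrays, among them PAX8, EPCAM, KRT7 and KRT19, while KRT8, MUC16 and CLDN4 were not. The summed linear intensity of these 10 markers was higher on every CpG array, at 21478 to 22576, than on any saline array, at 18639 to 19985. KRT19, the brightest marker with log2 levels of 13.21 to 13.60, weighed most in this sum, and its change was 0.21 ± 0.12 (SE). MUC1 and CDH1 had an unadjusted p under 0.05: MUC1 was higher at 0.67 ± 0.16 (SE) and CDH1 at 0.94 ± 0.32 (SE), with adjusted p-values of 0.193 and 0.313 in limma. CDH1 was above background on 0 saline arrays and on all 3 CpG arrays, so it was kept for testing through its CpG arrays alone. The p-value and the size of its change are therefore uncertain. Its change was 0.57 without CpG ascites replicate 1. KRT18 had -1.07 ± 0.64 (SE) with that array and -0.23 without it. EPCAM and KRT7 had 0.04 and 0.0078 with all arrays, and 0.12 and -0.0088 without CpG ascites replicate 1. The part of these markers in the changes of the 10 genes was not tested. Of 12 leukocyte markers only CD68 was above background on at least 3 arrays, and PTPRC, CD14, LYZ and CD3E were not. CD68 had 11.52 and 11.55 on the log2 scale in saline and CpG ascites. Its change was 0.03, or 0.10 without CpG ascites replicate 1. The summed linear intensity of the 12 leukocyte markers was 3310 to 3615 on the saline arrays and 3192 to 3761 on the CpG arrays. Most of this sum was CD68, so it says little about the other leukocyte markers. Of 8 hepatocyte markers, 7 had a probe, and 0 of these were above background on at least 3 arrays. Of 9 mesothelial and fibroblast markers only UPK3B was, with a change of -0.51 ± 0.33 (SE), or -0.09 without CpG ascites replicate 1. The summed linear intensity of these 9 markers was 492 to 516 on the saline arrays. On the CpG arrays it was 416, 537 and 504, in the order of replicates 1, 2 and 3.

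Levels below are log2 intensities after background correction and quantile normalization, in the order of replicates 1, 2 and 3, and changes are CpG ascites minus saline ascites on the same scale. A probe was kept for testing when it was above background on at least 3 of the 6 arrays. Of the 19 probes, 10 were kept, covering 8 of the 10 genes, and IL6R and LIFR had no kept probe. In limma with Benjamini-Hochberg adjustment over all 13713 probes kept, 0 of the 10 probes passed an adjusted p under 0.05, and so did 0% of all probes. At an unadjusted p under 0.05, 5 of the 10 were higher in CpG ascites, against 6.86% of all probes kept, and 0 were lower, against 5.97%. These 5 probes stand for 3 genes, STAT3, LBP and SERPINA1. The 3 CpG arrays lay above the 3 saline arrays, without overlap, at 6 of the 10 probes, those 5 and the IL6 probe, against 10.9% of all probes kept, and at 0 they lay below without overlap, against 9.82%. Without CpG ascites replicate 1, 5 of the 10 had a higher level at an unadjusted p under 0.05, with IL6 in place of STAT3 probe 1, against 6.82% of all probes kept. The IL6ST probe then had a lower level, against 8.06%, and 0 of the 10 passed after adjustment, against 0.153%. The 3 STAT3 probes measure 1 gene, so these counts are not of independent items, and the genes were chosen with earlier results of these data known.

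**Figure D1:**
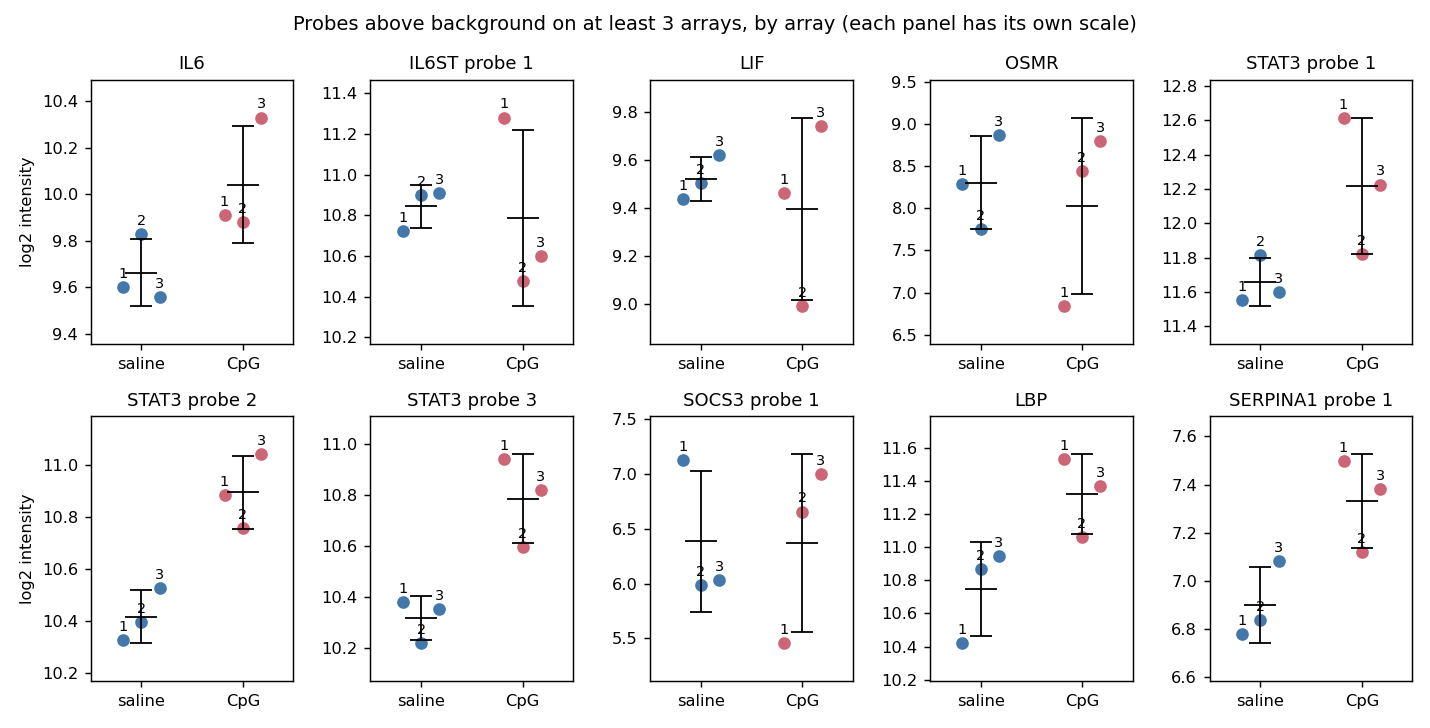
Log2 intensity of the 10 probes kept, by group (saline ascites in blue, CpG ascites in red). Each point is 1 array with its replicate number, the wide bar is the mean and the whiskers are 1 SD over 3 arrays; CpG ascites lies above saline ascites without overlap for IL6, the 3 STAT3 probes, LBP and SERPINA1, and OSMR and SOCS3 are lowest on CpG ascites replicate 1.

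Of the ligands, IL6, the cytokine itself, had log2 levels of 9.60, 9.83 and 9.56 in saline ascites and 9.91, 9.88 and 10.33 in CpG ascites. All 3 CpG arrays lay above all 3 saline arrays, with CpG ascites replicate 3 the highest and only 0.055 between the closest arrays of the groups. The log2 change was 0.38 ± 0.16 (SE), a 1.3-fold difference, with a 95% interval of -0.0043 to 0.76 and an adjusted p of 0.392 in limma. The change was 0.44 ± 0.17 (SE) without CpG ascites replicate 1, and without CpG ascites replicate 3 it was 0.23. LIF, a cytokine that signals through the same gp130 chain, had log2 levels of 9.44, 9.50 and 9.62 in saline ascites and 9.46, 8.99 and 9.74 in CpG ascites. The CpG arrays held both the highest and the lowest LIF level, and the groups overlapped. Its change was -0.12 ± 0.20 (SE), with a 95% interval of -0.59 to 0.34. Both ligands were above background on every array.

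The promoter of IL6 is shown because it holds sequences of the type bound by factors known to drive this gene. The window runs from 250 bases before to 50 bases after the annotated start, on the gene's own strand, from RefSeq (GRCh38.p14). Capitals mark matches to 4 motifs searched on both strands: GGGNNNTTCC for NF-kB, TTGCNNAA for C/EBP, and TTCNNNGAA and TTCNNNNGAA for STAT factors. Of 35116 promoter windows in the table, 6.52% hold the first, 10.5% the second, 7.66% the third and 6.44% the last.
IL6, chr7:22726950-22727249, plus strand: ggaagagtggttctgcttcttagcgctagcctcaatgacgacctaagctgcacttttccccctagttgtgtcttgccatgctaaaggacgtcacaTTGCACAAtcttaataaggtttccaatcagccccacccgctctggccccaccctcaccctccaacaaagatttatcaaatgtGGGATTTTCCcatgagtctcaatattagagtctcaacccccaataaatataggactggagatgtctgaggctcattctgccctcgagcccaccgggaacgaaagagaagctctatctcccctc
IL6 held 1 NF-kB match, GGGATTTTCC, which begins at -73 from the start, and 1 C/EBP match, TTGCACAA, which begins at -155. These are matches of letters within this window, with no measurement of binding in these data. Neither STAT motif matched in the window. Of the 10 genes, 8 had 12 windows in the table in all, and LIF and LBP had none. Some windows not shown held matches too. LIFR, with 3 windows, had TTCNNNGAA matches that begin at -165 in 1 window and at -182 in another. C/EBP matches begin at -31 in a LIFR window and at -73 in that of OSMR, and an NF-kB match at -5 in a SOCS3 window.

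The receptor chains fell into 2 kinds by detection. IL6ST, which encodes gp130, had log2 levels of 10.72, 10.90 and 10.91 in saline ascites and 11.28, 10.48 and 10.60 in CpG ascites at probe 1 (ILMN_1849013). The CpG arrays lay on both sides of the saline arrays, replicate 1 above all 3 and replicates 2 and 3 below all 3. Over all arrays the change was -0.06 ± 0.22 (SE), with a 95% interval of -0.57 to 0.45 and an adjusted p of 0.92 in limma. It was -0.31 ± 0.13 (SE) when CpG ascites replicate 1 was left out, with an unadjusted p of 0.0466 and an adjusted p of 0.328. The other IL6ST probes, ILMN_1746604 and ILMN_1797861, were above background on 0 of 6 arrays, at 5.11 to 6.45 and 4.79 to 5.94. Probes 2 and 3 are annotated to the RefSeq transcript of the gene, and probe 1 to another sequence record. The reference gene table also lists a pseudogene, IL6STP1, whose transcripts a probe might share, so the level of IL6ST rests on probe 1 alone and is uncertain.

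OSMR, the oncostatin M receptor chain, had log2 levels of 8.29, 7.76 and 8.87 in saline ascites and 6.84, 8.45 and 8.81 in CpG ascites. CpG ascites replicate 1 was the lowest of the 6, and the other CpG arrays lay within the saline range. The change was -0.28 ± 0.51 (SE), with a 95% interval of -1.47 to 0.92, and 0.32 ± 0.29 (SE) without CpG ascites replicate 1. Of all probes kept, 98.0% had a smaller SD than OSMR over the CpG arrays, and 99.4% had a smaller SD over the saline arrays. The spread of OSMR was therefore wide in both groups, with an SD of 0.56 in saline and 1.05 in CpG ascites.

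IL6R, the chain that binds IL-6, was above background on 0 of 6 arrays at both of its probes. Its detection p-values were 0.0184 to 0.618 at probe 1 and 0.0725 to 0.403 at probe 2, and its log2 levels were 4.85 to 6.01 and 4.94 to 5.40. LIFR, the chain that binds LIF, was also above background on 0 of 6 arrays, with detection p-values of 0.0105 to 0.0751. Its log2 levels were 6.28, 6.08 and 6.13 in saline ascites and 6.67, 6.05 and 5.39 in CpG ascites, with the groups overlapping. IL6R and LIFR were thus not well above background at these probes. The fit without the filter gave changes of 0.09 ± 0.31 and -0.06 ± 0.14 (SE) for IL6R and -0.13 ± 0.29 (SE) for LIFR.

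**Figure D2:**
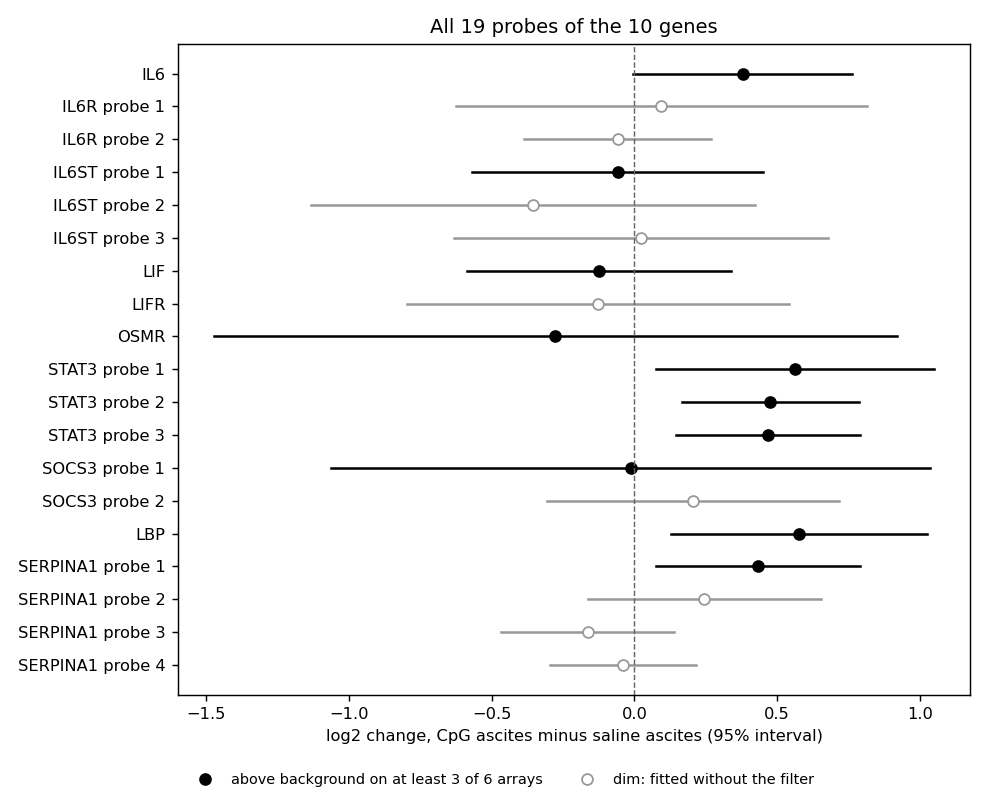
Log2 change (CpG ascites minus saline ascites) with its 95% interval for all 19 probes of the 10 genes. Filled points are the 10 probes kept and open grey points the 9 dim probes, fitted without the filter; the intervals of the 3 STAT3 probes, LBP and SERPINA1 probe 1 lie above 0 before adjustment over all probes, and those of OSMR and SOCS3 probe 1 are the widest of the probes kept.

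STAT3, the transcription factor of this pathway, had a higher mean in CpG ascites at each of its 3 probes, with no overlap of the groups, but no probe had an adjusted p under 0.05. Probe 1 (ILMN_2401978) had log2 levels of 11.55, 11.81 and 11.60 in saline ascites and 12.61, 11.82 and 12.23 in CpG ascites. Its groups barely separated, since CpG ascites replicate 2 lay beside saline ascites replicate 2. Probe 2 (ILMN_2410986) had 10.33, 10.40 and 10.53 in saline ascites and 10.88, 10.76 and 11.04 in CpG ascites. Probe 3 (ILMN_1663618) had 10.38, 10.22 and 10.35 in saline ascites and 10.94, 10.60 and 10.82 in CpG ascites. At probes 2 and 3 every CpG array lay at least 0.23 and 0.22 above every saline array, respectively, and CpG ascites replicate 2 was the lowest CpG array at all 3 probes.

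The log2 changes of STAT3 were 0.56 ± 0.21, 0.48 ± 0.13 and 0.47 ± 0.14 (SE) at probes 1, 2 and 3, which is 1.48-fold, 1.39-fold and 1.38-fold. Their 95% intervals were 0.08 to 1.05, 0.17 to 0.79 and 0.15 to 0.79. The adjusted p-values in limma were 0.346, 0.264 and 0.271, from unadjusted values of 0.0286, 0.00784 and 0.0103. An exact two-sided permutation test over arrays gave p = 0.1 at each probe, the smallest that 3 against 3 arrays can give. Without CpG ascites replicate 1 the changes were 0.37 ± 0.16, 0.48 ± 0.14 and 0.39 ± 0.13 (SE), so the value at probe 1 leaned most on that array. Probes 1 and 3 are annotated to 1 STAT3 transcript and probe 2 to another, and the sizes at the 3 probes differed by less than their standard errors. The promoter of STAT3 is shown beside that of IL6 because STAT3 is known to induce its own gene; the window holds no match to the 4 motifs, which says only that these letters are not in it.
STAT3, chr17:42388393-42388692, minus strand: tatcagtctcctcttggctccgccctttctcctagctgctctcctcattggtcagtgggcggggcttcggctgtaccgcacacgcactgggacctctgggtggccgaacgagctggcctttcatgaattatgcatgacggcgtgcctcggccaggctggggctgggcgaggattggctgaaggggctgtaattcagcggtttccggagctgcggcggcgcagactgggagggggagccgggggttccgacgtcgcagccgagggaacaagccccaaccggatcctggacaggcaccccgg

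SOCS3, the feedback inhibitor that STAT3 is known to induce, showed no difference beyond its spread. Probe 1 (ILMN_1781001) had log2 levels of 7.13, 5.99 and 6.03 in saline ascites and 5.46, 6.66 and 7.00 in CpG ascites. It was above background on 1 saline array, replicate 1, and on 2 CpG arrays, replicates 2 and 3, and CpG ascites replicate 1 was the lowest of the 6. Its change was -0.01 ± 0.45 (SE), with a 95% interval of -1.06 to 1.03 and an adjusted p of 0.993 in limma. Without CpG ascites replicate 1 the change was 0.44 ± 0.33 (SE), and without CpG ascites replicate 3 it was -0.33, so SOCS3 had no settled direction. The interval holds differences of the size seen for STAT3 in either direction, so these arrays do not show that SOCS3 stayed level. Probe 2 (ILMN_2156250) was above background on 0 of 6 arrays, at 5.21 to 6.05.

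LBP, which encodes the lipopolysaccharide-binding protein that hands bacterial lipid to CD14, had log2 levels of 10.42, 10.87 and 10.95 in saline ascites and 11.53, 11.06 and 11.37 in CpG ascites. Every CpG array lay above every saline array, and the lowest saline array was replicate 1. The change was 0.58 ± 0.19 (SE), 1.49-fold, with a 95% interval of 0.13 to 1.02 and an adjusted p of 0.302 in limma. It was 0.47 ± 0.19 (SE) without CpG ascites replicate 1 and 0.41 without saline ascites replicate 1.

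SERPINA1, which encodes alpha-1 antitrypsin, the main inhibitor of neutrophil elastase in plasma, had 4 probes. Probe 1 (ILMN_2338452) had log2 levels of 6.78, 6.84 and 7.08 in saline ascites and 7.50, 7.12 and 7.38 in CpG ascites, and was above background on all 6 arrays. The groups did not overlap, although CpG ascites replicate 2 lay only 0.04 above the highest saline array. The change was 0.43 ± 0.15 (SE), 1.35-fold, with a 95% interval of 0.08 to 0.79 and an adjusted p of 0.328 in limma. Without CpG ascites replicate 1 it was 0.35 ± 0.15 (SE). With no background correction it was 0.26. Probe 2 (ILMN_2404154) was above background on 1 array, CpG ascites replicate 3, and had 0.25 ± 0.17 (SE) in the fit without the filter. Probes 3 and 4 were above background on 0 of 6 arrays and had -0.16 ± 0.13 and -0.04 ± 0.11 (SE). The direction of SERPINA1 thus rests on 1 of its 4 probes.

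SERPINA1 has 2 annotated start sites in the promoter table, and both windows are shown because its 4 probes are annotated to 3 transcripts and gave unequal signals. Neither window held a match to the 4 motifs, so neither has capitals.
SERPINA1 window A, chr14:94390586-94390885, minus strand: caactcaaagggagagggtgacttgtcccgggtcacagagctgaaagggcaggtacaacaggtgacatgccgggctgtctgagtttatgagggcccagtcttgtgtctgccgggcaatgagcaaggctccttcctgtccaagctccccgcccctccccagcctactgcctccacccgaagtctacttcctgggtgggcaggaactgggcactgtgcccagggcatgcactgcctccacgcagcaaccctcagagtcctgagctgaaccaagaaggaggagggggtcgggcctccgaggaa
SERPINA1 window B, chr14:94388553-94388852, minus strand: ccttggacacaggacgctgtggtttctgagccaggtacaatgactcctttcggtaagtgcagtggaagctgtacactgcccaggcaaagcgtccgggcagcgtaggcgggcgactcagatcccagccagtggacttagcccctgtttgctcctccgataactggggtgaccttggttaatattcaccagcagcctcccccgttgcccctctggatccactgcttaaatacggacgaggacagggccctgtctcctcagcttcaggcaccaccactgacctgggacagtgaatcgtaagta

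The arrays differed in how these genes were arranged. CpG ascites replicate 1 held the highest level of 5 of the 10 probes kept, namely STAT3 probes 1 and 3, IL6ST, LBP and SERPINA1, and the lowest level of 2, OSMR and SOCS3. Over all probes kept, 31.3% had their highest and 26.1% their lowest level on that array, so this array was also often extreme elsewhere. Saline ascites replicate 1 held the lowest level of 4 of the 10, against 14.9% of all probes kept. On CpG ascites replicate 1 the deviation from the saline mean was 0.96 for STAT3 probe 1, 0.79 for LBP, -0.93 for SOCS3 and -1.47 for OSMR. On CpG ascites replicate 3 the same deviations were 0.57, 0.63, 0.61 and 0.50, and on CpG ascites replicate 2 they were 0.16, 0.31, 0.27 and 0.14. All 4 genes therefore lay above the saline mean on replicates 2 and 3. On replicate 2, OSMR and SOCS3 did so by less than their saline SDs of 0.56 and 0.64. IL6 and SERPINA1 were above the saline mean on all 3 CpG arrays. IL6ST was below it on replicates 2 and 3, at -0.37 and -0.25, and LIF on replicate 2, at -0.53. OSMR and SOCS3 lay below the saline mean on CpG ascites replicate 1. The part of that array in these values was not tested beyond leaving it out.

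**Figure D3:**
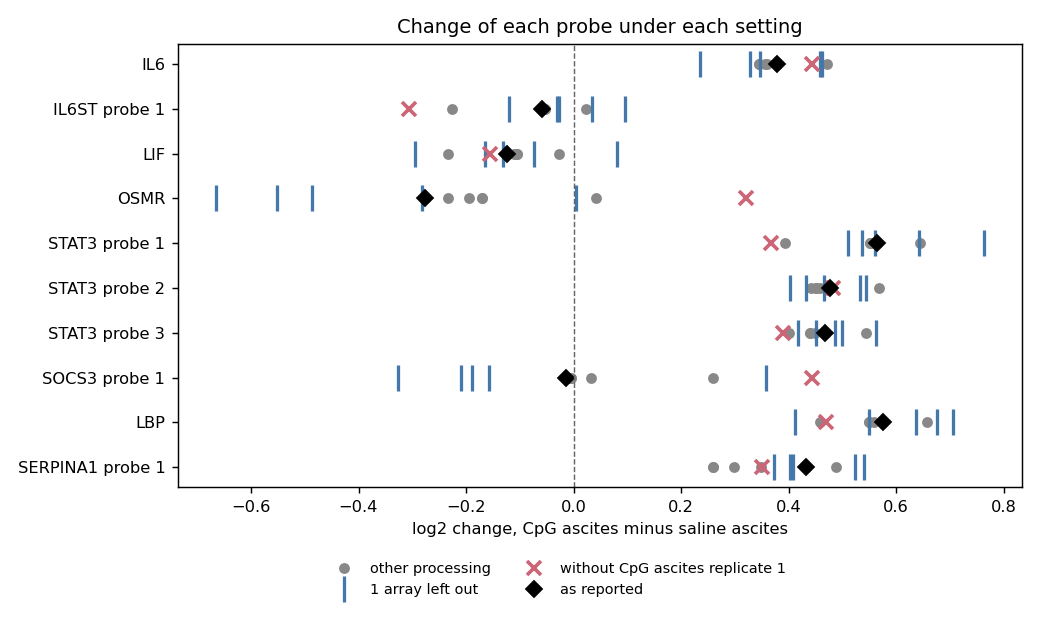
Log2 change (CpG ascites minus saline ascites) of the 10 probes kept under every setting run. Black diamonds are the values reported, grey circles other processing, blue ticks 1 array left out and red crosses the value without CpG ascites replicate 1; IL6, STAT3, LBP and SERPINA1 stay above 0 throughout, and IL6ST, LIF, OSMR and SOCS3 lie on both sides of 0.

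Other genes of the pathway were taken from 8 lists by role, with the brightest kept probe for each gene, and 0 genes of any list passed the test over all probes. The median change of all probes kept was -0.00037. Of the 10 ligands on the list, 8 had a probe and only IL6 and LIF were kept. The others with a probe, among them OSM, IL11 and CLCF1, were not above background on at least 3 arrays. Of the 8 receptor chains, 7 had a probe and only IL6ST and OSMR were kept, with a median change of -0.17 over all arrays and 0.0074 without CpG ascites replicate 1. CNTFR, IL27RA and IL31RA were not.

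Of the JAK and STAT transducers, 8 of 11 were kept, with 4 higher and 4 lower means and a median change of 0.07, or 0.12 without CpG ascites replicate 1. At an unadjusted p under 0.05, 2 were higher, STAT3 and SOS1, against 6.86% of all probes kept, and 1 was lower, PTPN11, against 5.97%. SOS1 and PTPN11 were also past it without CpG ascites replicate 1, and STAT3 probe 1, the brightest, was not, at 0.0547. SOS1, a nucleotide exchange factor that links receptors to RAS, had 6.66, 6.75 and 6.58 in saline ascites and 7.81, 7.04 and 7.25 in CpG ascites, without overlap, a change of 0.70 ± 0.20 (SE). It was above background on 2 of the 3 saline arrays. PTPN11, the phosphatase SHP2 that binds gp130, had 11.83, 11.72 and 11.59 against 11.34, 11.38 and 11.33, with every CpG array below every saline array, a change of -0.36 ± 0.12 (SE). Their adjusted p-values in limma were 0.271 and 0.302. Of the kinases, JAK1 had 0.19 ± 0.15, JAK2 -0.11 ± 0.21 and TYK2 -0.05 ± 0.15 (SE), and without CpG ascites replicate 1 JAK2 had -0.27 and TYK2 0.08.

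Of the feedback and phosphatase inhibitors, 7 of 10 were kept, with a median change of 0.13, or 0.21 without CpG ascites replicate 1. Only 1 was higher at an unadjusted p under 0.05, against 6.86% of all probes kept. This was PTPN6, the phosphatase SHP1 that acts on JAK kinases, with 7.07, 7.33 and 7.22 in saline ascites and 8.43, 7.73 and 8.11 in CpG ascites. Its groups were 0.40 apart at their closest arrays, and the change was 0.88 ± 0.19 (SE), with an adjusted p of 0.185 in limma and 0.115 without CpG ascites replicate 1. PIAS3, an inhibitor of STAT3 DNA binding, had 0.45 ± 0.23 (SE) with all arrays and 0.21 ± 0.16 without CpG ascites replicate 1. PTPN1, another phosphatase of JAK kinases, had 0.34 ± 0.16 (SE), with overlapping groups, and 0.22 without CpG ascites replicate 1.

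Of the STAT3 target genes, 15 of 20 were kept, with 11 higher and 4 lower means and a median change of 0.08, which was 0.02 without CpG ascites replicate 1 and 0.20 without CpG ascites replicate 2. At an unadjusted p under 0.05, 0 were higher and 0 lower, against 6.86% and 5.97% of all probes kept; without CpG ascites replicate 1, HIF1A alone was lower, against 8.06%. CEBPD, a transcription factor of the acute phase response, had 11.17, 11.19 and 11.26 in saline ascites and 11.85, 11.57 and 11.31 in CpG ascites, a change of 0.37 ± 0.16 (SE) that was 0.23 without CpG ascites replicate 1. BCL3, an IkB family cofactor, had 0.69 ± 0.30 (SE), with overlapping groups. HIF1A, the hypoxia factor, had -0.37 ± 0.20 (SE) at its brightest probe but 0.40 ± 0.15 and 0.39 ± 0.20 at its other probes, or -0.48, 0.26 and 0.17 in the same order without CpG ascites replicate 1, so its probes disagreed in direction. CCND1, the cyclin D1 gene, had 0.0049 ± 0.11, BIRC5, the survivin gene, -0.14 ± 0.14 and MCL1, an anti-apoptotic BCL2 relative, -0.10 ± 0.19 (SE). When CpG ascites replicate 1 was left out they had 0.0013, -0.06 and -0.23. PIM1, PIM3, ICAM1, HGF and FGL1 were not above background on at least 3 arrays.

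Of the 29 positive acute phase genes, 28 had a probe and 9 were kept, with 7 higher and 2 lower means and a median change of 0.39. At an unadjusted p under 0.05, 5 of these 9 were higher, namely CFB, LBP, SERPINA1, LCN2 and HGFAC, against 6.86% of all probes kept, and 0 were lower, against 5.97%. The same 5 were those whose groups did not overlap, against 10.9% of all probes kept. CFB, complement factor B, had 6.93, 6.74 and 6.75 in saline ascites and 8.66, 7.73 and 7.89 in CpG ascites, with every CpG array at least 0.80 above every saline array. On the saline arrays CFB lay just above background, with detection p-values of 0.0066, 0.0079 and 0.0092 against the cut of 0.01. Its change was 1.29 ± 0.24 (SE), with an adjusted p of 0.157 in limma, and 1.00 ± 0.13 with an adjusted p of 0.049 without CpG ascites replicate 1. LCN2, the siderophore-binding lipocalin, was highest on CpG ascites replicate 1 and had 0.61 ± 0.25 (SE) with that array and 0.33 ± 0.15 without it, at an unadjusted p of 0.061. HGFAC, a plasma protease that activates hepatocyte growth factor, had 0.39 ± 0.14 (SE). SERPINA3, alpha-1 antichymotrypsin, and FGA, a fibrinogen chain, had lower means, at -0.50 ± 0.22 and -0.33 ± 0.23 (SE), and TIMP1 had 0.04 ± 0.14. FGA was lowest on CpG ascites replicate 1 and had -0.08 without it, where TIMP1 had -0.02. The plasma acute phase genes SAA1, SAA2, CRP, HP, HPX, ORM1 and HAMP were not above background on at least 3 arrays. The list's median was 0.31 when CpG ascites replicate 1 was left out, and 3 of its genes, CFB, LBP and SERPINA1, then had an unadjusted p under 0.05 and a higher level, against 6.82% of all probes kept. None of the 6 negative acute phase genes was kept, ALB and TTR among them.

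The list of receptor shedding genes held the proteases ADAM10 and ADAM17, which release soluble IL6R from cells, and the regulators RHBDF1 and RHBDF2. All 4 were kept, with a median change of -0.02, or -0.03 without CpG ascites replicate 1. At their brightest probes 0 of these genes were past an unadjusted p of 0.05 in either direction. ADAM17, the main protease of IL6R release, had 0.26 ± 0.15 (SE) at its brightest probe and 0.62 ± 0.21 at its second. At the second probe CpG ascites lay higher without overlap, against 10.9% of all probes kept. Its unadjusted p was 0.0196 and its adjusted p 0.309 in limma, and its change was 0.48 without CpG ascites replicate 1. The count at that threshold thus depends on the ADAM17 probe used. ADAM10 had 0.02 ± 0.17, and the rhomboid regulators of ADAM17 had -0.33 ± 0.23 for RHBDF1 and -0.06 ± 0.15 (SE) for RHBDF2. RHBDF1 was lowest on CpG ascites replicate 1, and without that array the changes were -0.15 for ADAM10, -0.07 for RHBDF1 and 0.0026 for RHBDF2.

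**Figure D4:**
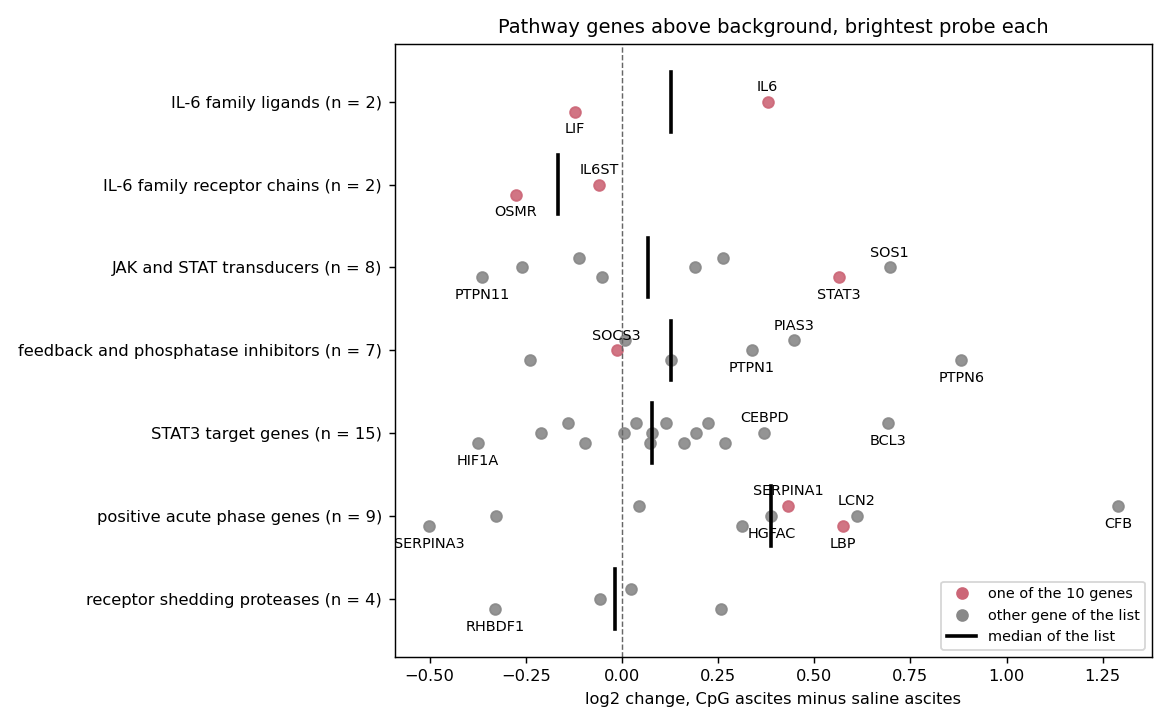
Log2 change (CpG ascites minus saline ascites) of each pathway gene above background on at least 3 arrays, by list; the number of genes kept is given with each list. Each point is the brightest probe of a gene, red for the 10 genes described and grey for others, and the black bar is the list's median, which is 0.39 for positive acute phase genes, with CFB farthest right, and -0.17 to 0.13 for the other lists.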

How the data were processed

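Per the submitters' processing notes, arrays were summarised with BeadStudio. The deposited table gives raw probe intensity, labelled as non-normalized in its header. Per the file headers, a detection p-value accompanies each intensity. A second deposited table holds the authors' processed intensity, with medians of 121 on each array; how it was made is not stated in the labels. All columns were used.

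Intensities were corrected and normalized with neqc (limma 3.58.1, R 4.3.3; offset 16, negative controls inferred from detection p-values, quantile normalization, log2). A probe was kept when its detection p-value was below 0.01 on 3 or more of the 6 arrays. The fit used lmFit and eBayes in limma, without covariates and two-sided. Benjamini-Hochberg adjustment covered the 13713 probes kept, and the threshold was 0.05. Gene names came from the platform annotation, updated by gene number. The fit was tested on simulated data. Same-numbered samples' deviations correlated at -0.10, 0.014 and -0.021, so replicate numbers were not taken as pairs.

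The genes and lists were chosen with earlier results of these data known. From each list, genes past the threshold, or else the 3 with the smallest p, were named with their other probes. Further list genes and the markers named were picked with their values in view.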

Additional observations from a re-analysis of the deposited data

How the results depend on the processing

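Each fit was repeated under other background corrections, normalizations, probe filters and variance models, with the authors' values, and with each array left out. Under all 15 alternatives, 0 of the probes of the 10 genes passed the test, and the changes of IL6, STAT3 (3 probes), LBP and SERPINA1 kept their direction. The count of probes called over the whole array was 0 in the reported fit, 1 with no background correction, 1 with the authors' values and 14 with a mean-variance trend, and with 1 array left out it ran from 0 to 21, the latter without CpG ascites replicate 1. Among the pathway lists 0 genes were called, and 0 to 1 with 1 array left out, the 1 being CFB without CpG ascites replicate 1. Directions were not settled for 4 genes. With median scaling IL6ST had 0.023 and SOCS3 0.032, and with array weights OSMR had 0.042 and SOCS3 0.26. With 1 array left out, the change ran from -0.31 to 0.095 for IL6ST, -0.30 to 0.081 for LIF, -0.66 to 0.32 for OSMR and -0.33 to 0.44 for SOCS3. These turns followed from leaving out or down-weighting single arrays or from the scaling, and the cause was not tested further. With the replicate block, 0 probes were called and the smallest adjusted p was 0.319, and it changed no call. At an unadjusted p under 0.05, 2 to 6 of the 10 probes were higher, and 6 of the 9 tested over probes detected on all 6 arrays. Over all 13713 probes kept this count also moved with the setting, from 483 to 1339. It was 864 of 12102 probes detected on all 6 arrays, and 2192 of 48801 without the filter. A lower level at that threshold was seen only for IL6ST without CpG ascites replicate 1, against 8.06% of all probes kept. The median of positive acute phase genes was 0.26 with no background correction, that of JAK and STAT transducers turned to -0.05 over probes detected on all 6 arrays, and with 1 array left out that of feedback inhibitors ran from 0.027 to 0.31 and that of STAT3 target genes from 0.019 to 0.20. The chip as a block was not run, since the column names give no chip. Signal over background limits IL6R, LIFR and SOCS3, and 3 arrays per group limit every value.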
